A study of Mus musculus with 15 samples.

Results

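The C/EBP (CCAAT/enhancer-binding protein) transcription factor family was followed through its transcripts in differentiating 3T3-L1 cells, a mouse preadipocyte line that turns into fat-storing cells when given a hormone cocktail. The family was taken as the 6 genes Cebpa, Cebpb, Cebpd, Cebpg, Cebpz and Ddit3, matched by Entrez Gene number, and these are 6 of the 26301 gene rows that were counted by RNA-seq. All 15 libraries were made on day 2 after induction with IBMX (115 ug/mL), a phosphodiesterase inhibitor that raises cyclic AMP, the glucocorticoid dexamethasone (1 uM) and insulin (1.67 uM). Libraries fell into 5 groups of 3: cells with an empty hairpin retrovirus (sh-Empty), cells with a hairpin against Jmjd1a (sh-Jmjd1a), and the same knockdown cells that also received LacZ, wild-type JMJD1A (JMJD1A(WT)) or a mutant with a defective iron-coordination site (JMJD1A(H1122A)). JMJD1A, encoded by Kdm3a, is an iron-dependent histone demethylase that removes a repressive mark from chromatin. Every group therefore carried a retroviral vector, and the 3 groups with LacZ or JMJD1A carried a second one on top of the hairpin. Nothing in the sources says whether the 3 libraries of a group came from separate infections or cultures, so the p-values measure the spread between these libraries, which may be technical.

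C/EBP proteins are leucine-zipper factors that bind DNA as pairs. In 3T3-L1 adipogenesis, C/EBPβ and C/EBPδ are induced within hours of the cocktail, C/EBPβ by cyclic AMP signalling and C/EBPδ by glucocorticoid, and they switch on C/EBPα and PPARγ, which then sustain each other and drive the fat-cell genes. C/EBPγ has a DNA-binding and a zipper region but no strong activation domain and acts mainly through its partners, while CHOP, the product of Ddit3, is a stress-induced member that forms pairs with C/EBPα and C/EBPβ and keeps them from classical C/EBP sites. Cebpz carries the family name but encodes a nucleolar protein related to the yeast pre-ribosome factor Noc1 and is no leucine-zipper factor.

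On the mm9 mouse assembly, Cebpa lay on chr7:35904312-35906945 (plus strand) as a single-exon gene and Cebpg on chr7:35831441-35841522 (minus strand, 2 exons), 62789 bp apart with no other counted gene between them. Cebpb was a single-exon gene on chr2:167514415-167515918 (plus strand). Cebpd was placed on chr16:15887379-15888559 (plus strand), Cebpz with 16 exons on chr17:79318346-79336410 (minus strand) and Ddit3 with up to 4 exons on chr10:126727830-126733344 (plus strand). Tmem189 exons covered 312 bp of Cebpb on the opposite strand (20.7% of its exon length), 1110001A16Rik covered 312 bp of Cebpz (7.66%) and Mars covered 68 bp of Ddit3 (3.97%). The strand setting of the counting was not given in the sources used here, so reads from these stretches cannot be told apart.

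The 250 bases before the start site are shown for the 4 members with an entry in the RefSeq promoter table (build GRCm38.p6). They set the neighbours Cebpa and Cebpg, which moved together, beside Ddit3, which rose in the knockdown, and Cebpb. Changes of Cebpb were not called, and their intervals were wide. Capitals mark each match, on either strand, to a C/EBP site (TTGCNNAA), a cyclic AMP response element (CRE, TGACGTCA) or its short form (TGACG), an AP-1 site (TGANTCA), a C/EBP-ATF composite site (TGATGCAA), an E-box (CACGTG) or a CCAAT box (CCAAT).
Cebpa, chr7:35119043-35119292, plus strand: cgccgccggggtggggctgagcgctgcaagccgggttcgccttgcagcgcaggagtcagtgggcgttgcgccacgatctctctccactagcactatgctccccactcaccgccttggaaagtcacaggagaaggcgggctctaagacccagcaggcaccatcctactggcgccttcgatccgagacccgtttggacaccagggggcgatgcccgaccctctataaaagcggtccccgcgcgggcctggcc
Cebpg, chr7:35056567-35056816, minus strand: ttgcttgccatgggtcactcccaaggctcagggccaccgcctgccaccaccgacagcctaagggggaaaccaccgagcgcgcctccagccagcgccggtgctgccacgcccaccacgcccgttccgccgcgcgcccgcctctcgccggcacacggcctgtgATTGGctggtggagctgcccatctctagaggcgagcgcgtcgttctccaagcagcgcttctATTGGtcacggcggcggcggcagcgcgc
Cebpb, chr2:167688665-167688914, plus strand: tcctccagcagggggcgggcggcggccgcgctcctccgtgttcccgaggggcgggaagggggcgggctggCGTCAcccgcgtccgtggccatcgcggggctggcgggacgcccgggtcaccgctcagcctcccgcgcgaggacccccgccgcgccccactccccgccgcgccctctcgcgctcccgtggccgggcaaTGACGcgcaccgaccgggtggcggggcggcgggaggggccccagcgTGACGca
Ddit3, chr10:127290543-127290792, plus strand: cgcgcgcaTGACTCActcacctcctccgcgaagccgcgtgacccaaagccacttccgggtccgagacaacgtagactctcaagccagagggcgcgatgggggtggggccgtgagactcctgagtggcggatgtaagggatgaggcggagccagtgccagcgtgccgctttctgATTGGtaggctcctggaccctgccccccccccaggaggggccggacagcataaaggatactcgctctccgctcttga

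The Cebpb window held 3 short CRE forms, starting at −180, −53 and −7 from the start site, and 17.8% of the 32851 promoters of the same length held at least 1. It also held 5 GC boxes (GGGCGG, found in 32.7% of promoters and left in lower case), 2 of which overlap each other. The Cebpg window had 2 CCAAT boxes and the Ddit3 window had 1, against a share of 33.8% of all promoters with at least 1. An AP-1 match started at −242 in the Ddit3 window and was found in 6.75% of promoters. None of these letters occurred in the Cebpa window, and the full CRE (1.55% of promoters), the C/EBP site (9.56%), the composite site (0.791%) and the E-box (6.02%) were in none of the 4. The windows were 64.8% to 81.6% G or C, against a median of 52.4% over all promoters. Only exact matches to the letters were sought, so a site that varies from them would go unmarked, and a window without a match may still hold one. These matches describe the letters and were not tied to any measured level.

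Library totals ran from 11437058 to 15561207 counts except for JMJD1A(WT) replicate 3 with 25523148. Kdm3a was measured at 169, 172 and 182 CPM, the count scaled to library size and composition over the 15 libraries, in sh-Empty and at 128, 127 and 135 CPM in sh-Jmjd1a, a fall of 0.42 on the log2 scale (SE 0.048, adjusted p = 2.91e-08, edgeR). It stood at 117 to 123 CPM with LacZ, 1647 to 1779 CPM with JMJD1A(WT) and 2115 to 2291 CPM with JMJD1A(H1122A), so the mutant transcript was 1.30-fold above the wild-type one (adjusted p = 3.94e-12, edgeR). The 8 adipocyte markers summed to 5188 to 5260 CPM in sh-Empty, 2599 to 2767 in sh-Jmjd1a, 3343 to 3442 with LacZ, 3781 to 4135 with JMJD1A(WT) and 2613 to 2727 with JMJD1A(H1122A). Lpl alone averaged 3896 CPM in sh-Empty and 2330 in sh-Jmjd1a, so that sum mostly reports Lpl. Summed preadipocyte and fibroblast markers (10 genes) were 12520 to 12702 CPM in sh-Empty, 20561 to 22246 in sh-Jmjd1a and 25427 to 26941 across the other 3 groups. Most of this was collagen: Col3a1 and Col1a2 averaged 4734 and 2995 CPM in sh-Empty and 8608 and 6001 in sh-Jmjd1a. Macrophage markers (6 genes, 5 of them under 1 CPM in every library) summed to at most 4.0 CPM and endothelial markers (4 genes, all under 1 CPM) to at most 0.858 CPM. Muscle markers (4 genes, 3 under 1 CPM in every library, 2 of those at 0) summed to at most 16.6 CPM, the highest in JMJD1A(WT). Nearly all of that was Des, which averaged 15.5 CPM there. In bulk RNA, a smaller share of cells that express a gene and less of its RNA per cell cannot be told apart.

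In the knockdown 5 of the 6 members changed. Cebpa, Cebpg and Cebpz fell in sh-Jmjd1a against sh-Empty, Cebpd and Ddit3 rose, and Cebpb did not pass the test (edgeR quasi-likelihood test, Benjamini-Hochberg adjusted p under 0.05 over 12272 genes). Across all tested genes 23.9% fell and 22.3% rose in that comparison, so a call by itself sets no member apart. The median log2 change over the 6 members was −0.22, with members on both sides of 0, and that over all genes was −0.0032. Wild-type JMJD1A against LacZ raised Cebpa and Cebpg and lowered Cebpd, against 4.98% of 12557 genes raised and 4.52% lowered. JMJD1A(H1122A) against JMJD1A(WT) lowered Cebpa and Cebpg and raised Cebpd and Ddit3 (11.7% of genes lowered, 12.1% raised), and against LacZ it lowered Cebpa and Cebpg alone (4.46% lowered, 4.78% raised).

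**Figure D1:**
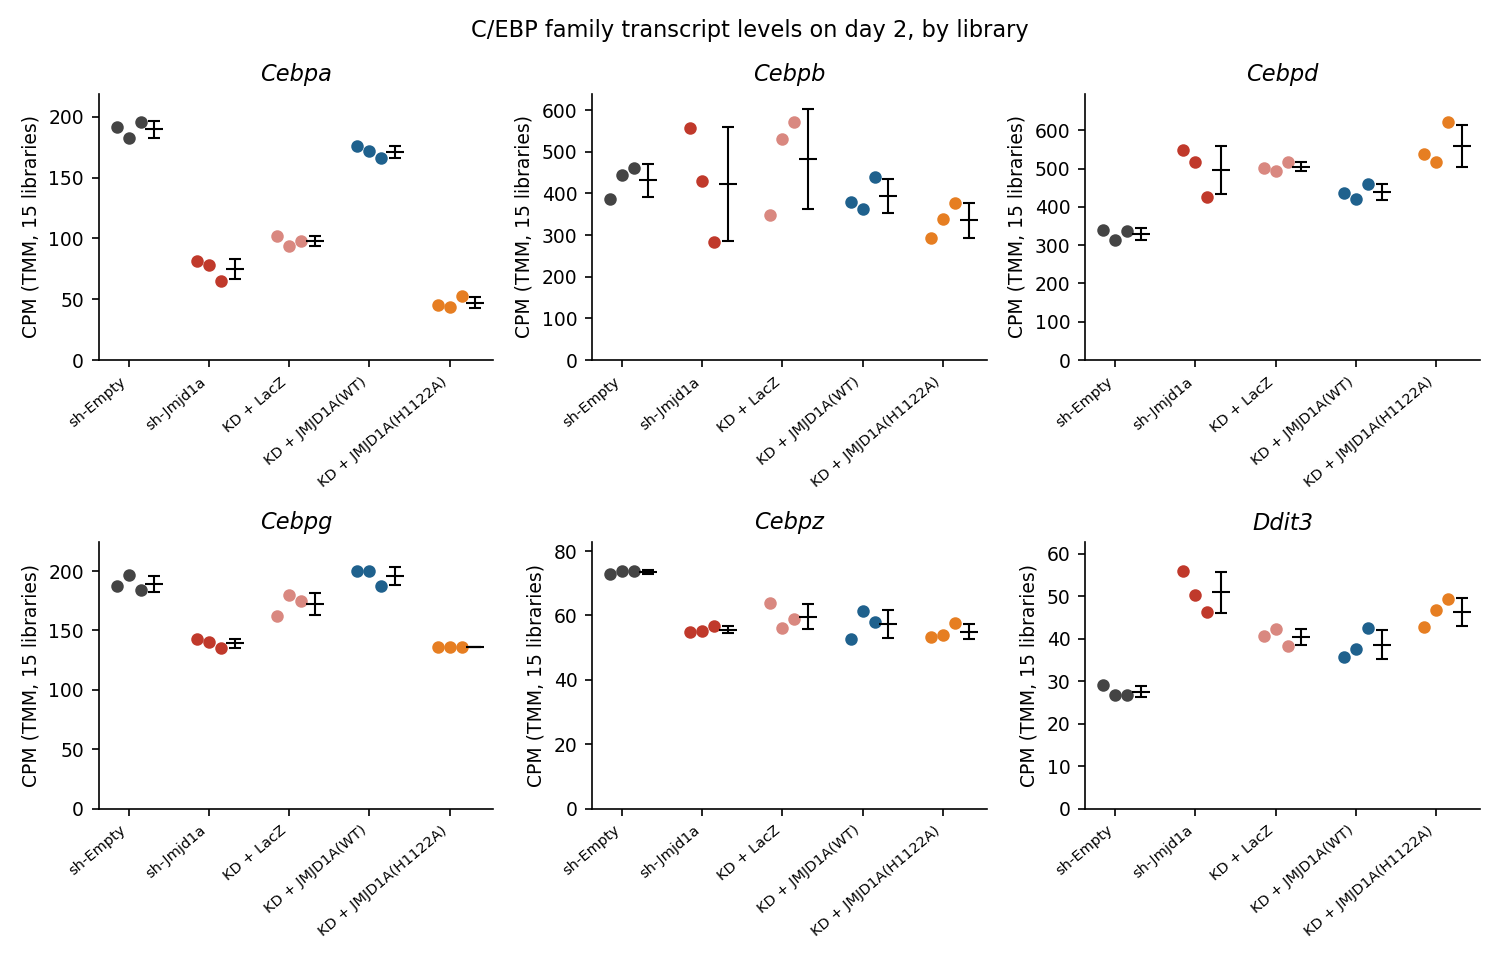
Transcript level of each member in every library, in CPM on a linear axis from 0, with the 3 libraries of each group as points and the group mean ± SD beside them (KD, knockdown cells). Cebpa is lowest with JMJD1A(H1122A) (43.99 to 52.4 CPM) and high in sh-Empty and JMJD1A(WT) (166 to 196 CPM), Ddit3 is lowest in sh-Empty, and the Cebpb points spread widely in sh-Jmjd1a and LacZ.

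Cebpa, the member that holds the fat-cell program in place, had the widest range of the family as a fold, though not in CPM. It was measured at 191, 182 and 196 CPM in the sh-Empty libraries and at 81.5, 78.1 and 65.4 CPM in sh-Jmjd1a. The groups lay far apart, and the fitted change was −1.35 on the log2 scale (SE 0.059, adjusted p = 1.34e-16, edgeR), a 2.54-fold fall that 2.70% of all genes exceeded in size. In the knockdown cells with LacZ the 3 values were 102, 93.5 and 98.3 CPM, and with JMJD1A(WT) they were 176, 172 and 166 CPM. Wild-type JMJD1A thus went with a 1.75-fold higher level (log2 0.81, SE 0.051, adjusted p = 8.00e-17, edgeR). With JMJD1A(H1122A) the levels were 45.4, 43.99 and 52.4 CPM, the lowest of all 5 groups and below every LacZ library. The mutant differed by −1.86 from JMJD1A(WT) (SE 0.058, adjusted p = 2.51e-28) and by −1.05 from LacZ (SE 0.061, adjusted p = 1.19e-17, edgeR). Only 4 genes had a smaller p than Cebpa between the mutant and the wild type, and 8 between the mutant and LacZ, where 0.948% of genes changed more in size. The order of Cebpa levels was sh-Empty, JMJD1A(WT), LacZ, sh-Jmjd1a and JMJD1A(H1122A), with no overlap of libraries between any neighbours in that order.

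Cebpg, which lies next to Cebpa in the genome, moved in the same direction as Cebpa in these 4 comparisons and by less. Its levels were 187, 197 and 184 CPM in sh-Empty and 142, 140.1 and 135 CPM in sh-Jmjd1a, a change of −0.45 (SE 0.045, adjusted p = 3.25e-09, edgeR). LacZ libraries gave 162, 179.9 and 175 CPM, and JMJD1A(WT) libraries 200.5, 199.8 and 187 CPM, a rise of 0.19 (SE 0.045, adjusted p = 0.00266, edgeR). All 3 JMJD1A(H1122A) libraries stood at 136 CPM, lower than with JMJD1A(WT) by 0.52 (SE 0.046, adjusted p = 1.64e-12) and lower than with LacZ by 0.33 (SE 0.047, adjusted p = 1.19e-06, edgeR) on the log2 scale. JMJD1A(WT) and sh-Empty overlapped at the top, JMJD1A(H1122A) fell inside the sh-Jmjd1a range at the bottom, and LacZ lay between.

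The gene on the other side of Cebpg, Pepd, 1711 bp away, encodes a dipeptidase and also fell in the knockdown (log2 −0.47, adjusted p = 7.00e-05, edgeR). It did not pass the test with JMJD1A(WT) against LacZ (−0.14, adjusted p = 0.410) or with JMJD1A(H1122A) against JMJD1A(WT) (0.17, adjusted p = 0.181, edgeR). Slc7a10, the neighbour of Cebpa on its far side, averaged 0.0275 CPM and was not tested. Near Cebpd, Spidr (760 bp away, a DNA-repair scaffold) rose in the knockdown by 0.34 and with the mutant against the wild type by 0.26 (adjusted p = 2.10e-07 and 3.36e-06, edgeR). Spidr also rose with the mutant against LacZ, by 0.18 (adjusted p = 0.00373, edgeR), while Mzt2 on the other side did not pass in any of the 4 comparisons. Ndufaf7, 64 bp from Cebpz, did not pass either (knockdown −0.16, adjusted p = 0.079, edgeR). Mbd6, 1755 bp from Ddit3, rose with JMJD1A(WT) against LacZ by 0.24 (adjusted p = 0.00245, edgeR), a contrast in which Ddit3 was not called. It rose with JMJD1A(H1122A) against LacZ as well, by 0.27 (adjusted p = 0.00146), and the mutant and the wild type differed by 0.03 (adjusted p = 0.796, edgeR). Of the neighbours of Cebpb, A530013C23Rik, 758 bp away, was not called in any of the 4 comparisons (knockdown −0.39, adjusted p = 0.454), and Ube2v1, 56819 bp away, fell in the knockdown by 0.33 (adjusted p = 2.27e-05, edgeR).

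Of the early members, Cebpd was called in 3 of these 4 comparisons and Cebpb in 0, and the difference between the 2 genes was not tested. Cebpb was at 388, 445 and 461 CPM in sh-Empty and at 556, 429 and 283 CPM in sh-Jmjd1a, so the knockdown libraries lay both above and below the controls. The fitted change was −0.04 with a 95% interval from −0.79 to 0.71 (adjusted p = 0.93, edgeR), which leaves room for a change of either sign. LacZ gave 347, 531 and 571 CPM, JMJD1A(WT) gave 380.05, 362 and 439 CPM, and JMJD1A(H1122A) gave 293, 338 and 376 CPM. The coefficient of variation of Cebpb was 32.3% in sh-Jmjd1a and 24.7% with LacZ, against 9.0% to 12.4% in the other 3 groups. No comparison called Cebpb. The nearest was JMJD1A(H1122A) against LacZ at −0.52 (SE 0.205, 95% interval −1.01 to −0.03, unadjusted p = 0.0416, adjusted p = 0.210, edgeR); without LacZ replicate 1, the low library of that group, it became −0.71 (adjusted p = 0.0304), and it was also called when the spread was not estimated robustly (adjusted p = 0.000139), as was Cebpb with JMJD1A(WT) against LacZ (−0.28, adjusted p = 0.0417).

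Cebpd moved opposite to Cebpa. It was measured at 340.2, 312 and 336 CPM in sh-Empty and at 547, 517 and 425 CPM in sh-Jmjd1a, a 1.5-fold rise (log2 0.59, SE 0.087, adjusted p = 0.000892, edgeR) with no overlap of the libraries. LacZ libraries stood at 503, 495 and 517 CPM and JMJD1A(WT) libraries at 436, 419.7 and 459.6 CPM, a fall of 0.19 on the log2 scale (SE 0.055, adjusted p = 0.0317, edgeR). That call was lost without any of LacZ replicates 1, 2 and 3 or JMJD1A(WT) replicates 1 and 2 (adjusted p = 0.0881 to 0.124) and in a fit of all 15 libraries (adjusted p = 0.248). With JMJD1A(H1122A) the values were 537, 516 and 621 CPM, above every JMJD1A(WT) library by 0.34 in the fit (SE 0.055, adjusted p = 0.000138, edgeR). Against LacZ the mutant differed by 0.15 (adjusted p = 0.111), and the call appeared without JMJD1A(H1122A) replicate 2 (0.21, adjusted p = 0.00473), with no filter on low counts (adjusted p = 0.00273), without robust estimation of the spread (adjusted p = 0.0363) and with a replicate block (adjusted p = 0.00205, edgeR). The lowest Cebpd level of the 5 groups was that of sh-Empty, where Cebpa was highest.

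Ddit3, the stress-induced inhibitory member, was lowest in sh-Empty at 29.0, 26.8 and 26.8 CPM and highest in sh-Jmjd1a at 56.0, 50.3 and 46.3 CPM. The rise was 1.84-fold (log2 0.88, SE 0.080, adjusted p = 3.20e-10, edgeR), and 7.06% of genes changed more in size. It was 40.5, 42.3 and 38.4 CPM with LacZ and 35.8, 37.6 and 42.5 CPM with JMJD1A(WT). These libraries overlapped and the change was −0.04 (95% interval −0.19 to 0.11, adjusted p = 0.843, edgeR). JMJD1A(H1122A) gave 42.8, 46.7 and 49.3 CPM, higher than JMJD1A(WT) by 0.24 (SE 0.075, adjusted p = 0.0163, edgeR). The call did not hold without JMJD1A(H1122A) replicate 2 or 3 or without JMJD1A(WT) replicate 1 (adjusted p = 0.0525, 0.107 and 0.097). Against LacZ the mutant was higher by 0.20 and did not pass (adjusted p = 0.101, edgeR).

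Cebpz, the nucleolar protein of the list, was at 72.8, 73.9 and 73.9 CPM in sh-Empty and at 54.7, 55.2 and 56.7 CPM in sh-Jmjd1a, a change of −0.41 (SE 0.059, adjusted p = 1.87e-06, edgeR) between groups that hardly varied within themselves. None of the 3 contrasts among the LacZ, JMJD1A(WT) and JMJD1A(H1122A) cells called it. LacZ gave 63.7, 56.2 and 58.9 CPM, JMJD1A(WT) 52.6, 61.4 and 58.1 CPM and JMJD1A(H1122A) 53.3, 53.9 and 57.7 CPM, all below sh-Empty. The change with JMJD1A(WT) against LacZ was −0.05 (95% interval −0.18 to 0.08, adjusted p = 0.745, edgeR).

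**Figure D2:**
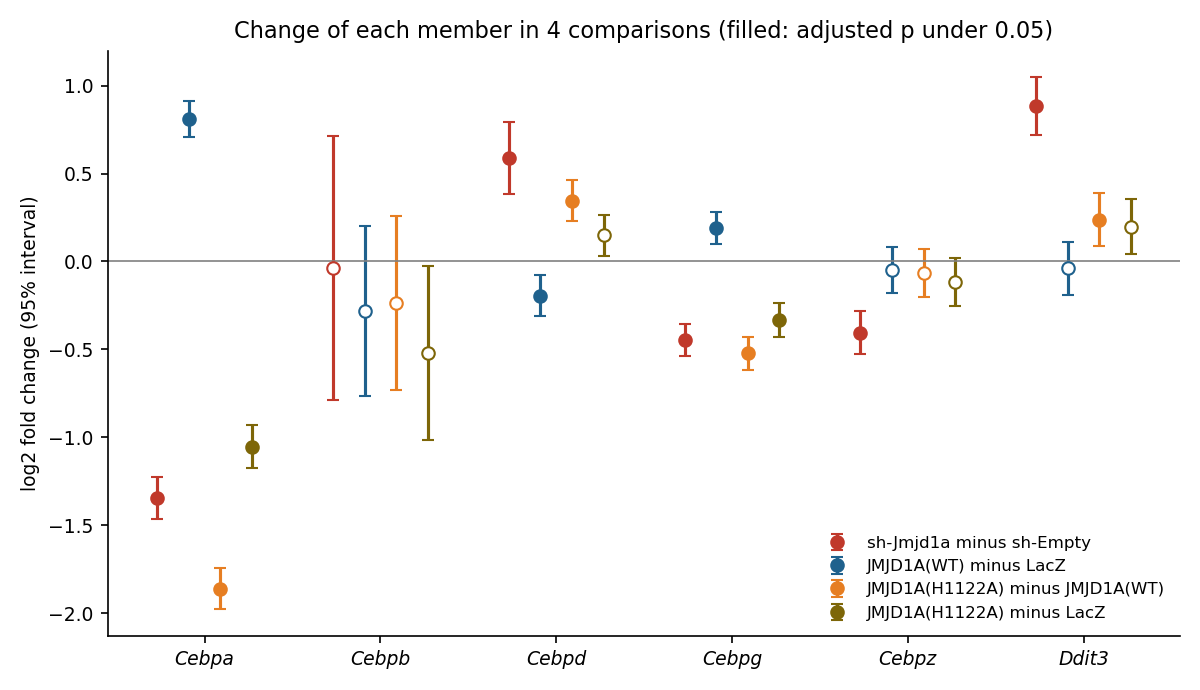
Fitted log2 fold change of each member in 4 comparisons with its 95% interval, filled where the adjusted p was under 0.05. Cebpa and Cebpg go down, up, down and down across the 4 comparisons, Cebpd takes the opposite signs, by less than Cebpa in each, Cebpz passes only in the knockdown, and the Cebpb intervals cross or nearly reach 0.

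The knockdown libraries and the LacZ and JMJD1A libraries were also set side by side in one fit of all 15, over 12758 genes. In these contrasts the construct and the set of libraries cannot be told apart. LacZ cells against sh-Jmjd1a, which differ by the added vector, showed higher Cebpa (log2 0.37, adjusted p = 2.57e-05) and Cebpg (0.29, adjusted p = 1.22e-05) and lower Ddit3 (−0.34, adjusted p = 0.00175, edgeR), while 3.62% of all genes were higher and 3.36% lower. Cebpd differed by 0.01 there (95% interval −0.19 to 0.20, adjusted p = 0.976). JMJD1A(WT) cells against sh-Empty showed Cebpg within 0.04 (95% interval −0.04 to 0.13, adjusted p = 0.424) and Cebpa lower by 0.15 (adjusted p = 0.0132, lost without sh-Empty replicate 3 or JMJD1A(WT) replicate 3 at adjusted p = 0.0824 and 0.0787). In the same contrast Cebpz was lower by 0.36 (adjusted p = 3.08e-06), Cebpd was higher by 0.41 (adjusted p = 0.00289) and Ddit3 was higher by 0.51 (adjusted p = 1.18e-06, edgeR), with 22.8% of all genes lower and 22.8% higher. Cells with JMJD1A(WT) thus had Cebpa and Cebpg close to the sh-Empty level, and Cebpd, Cebpz and Ddit3 apart from it.

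The change with less Kdm3a transcript was then compared between the 2 settings, sh-Jmjd1a against sh-Empty and LacZ against JMJD1A(WT). The Kdm3a change itself was unlike in size. It was −0.42 on the log2 scale with the hairpin, while JMJD1A(WT) cells stood 14.2-fold above LacZ cells and 9.72-fold above sh-Empty cells. The 2 settings are thus not one loss of the same size, and how the members depend on the Kdm3a level was not tested. Cebpa fell further in the first by 0.53 on the log2 scale (SE 0.080, adjusted p = 8.21e-07), and Cebpg by 0.25 (adjusted p = 0.00194, edgeR). Cebpz and Ddit3 were called in the first setting and not in the second, and their changes differed by −0.44 (adjusted p = 8.18e-05) and 0.85 (adjusted p = 2.57e-08, edgeR). Cebpd rose further in the first, by 0.40 (adjusted p = 0.0306), but that call held in 6 of the 15 fits with 1 library left out and was lost on removal of replicate 2 or 3 of sh-Empty, 1 or 2 of sh-Jmjd1a, 1 or 3 of JMJD1A(WT), or any of LacZ (adjusted p = 0.0501 to 0.075). Cebpb did not differ beyond its spread (−0.31, 95% interval −1.05 to 0.43, adjusted p = 0.539, edgeR). Over all genes 15.7% were lower and 17% higher in this contrast.

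Per kilobase of exon, Cebpb and Cebpd made up most of the family in every library. In sh-Empty they stood at 287 ± 25.8 and 279 ± 12.7 CPM per kb (SD, n = 3), with overlapping values, above Cebpa at 72.1 ± 2.61, Cebpg at 38.4 ± 1.34, Cebpz at 18.05 ± 0.163 and Ddit3 at 16.1 ± 0.765. In sh-Jmjd1a the order was Cebpd (421 ± 53.7), Cebpb (281 ± 90.9), Ddit3 (29.7 ± 2.85), Cebpa (28.5 ± 3.23), Cebpg (28.2 ± 0.776) and Cebpz (13.6 ± 0.256), and Ddit3, Cebpa and Cebpg did not differ beyond their spread. Dividing by the longest annotated transcript in place of all exons raised Ddit3 to 28.4 CPM per kb in sh-Empty, above Cebpz, and to 52.5 in sh-Jmjd1a. There it lay above Cebpa (28.5) and Cebpg (30.0), so the likeness of these 3 depends on the length used. The summed level of the 6 members was 711 ± 23.5 CPM per kb in sh-Empty and 802 ± 150 in sh-Jmjd1a.

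As a share of that sum, Cebpa took 9.83% to 10.5% in sh-Empty, 3.29% to 3.87% in sh-Jmjd1a, 4.02% to 5.05% with LacZ, 7.68% to 8.84% with JMJD1A(WT) and 2.23% to 2.35% with JMJD1A(H1122A). Cebpd took 37.6% to 41.7% in sh-Empty and 58.6% to 62.1% with JMJD1A(H1122A). Set against Cebpa in the same library, Cebpd CPM was 1.71 to 1.78 times as high in sh-Empty, 6.51 to 6.72 times in sh-Jmjd1a, 4.92 to 5.29 times with LacZ, 2.44 to 2.77 times with JMJD1A(WT) and 11.7 to 11.9 times with JMJD1A(H1122A). Ddit3 CPM per Cebpa CPM was 0.137 to 0.152 in sh-Empty and 0.941 to 1.06 with JMJD1A(H1122A). The ratio of Cebpd to Cebpa therefore kept a narrow range within each group, and its 5 ranges did not overlap. These ratios of CPM are not per length and are given as a description.

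**Figure D3:**
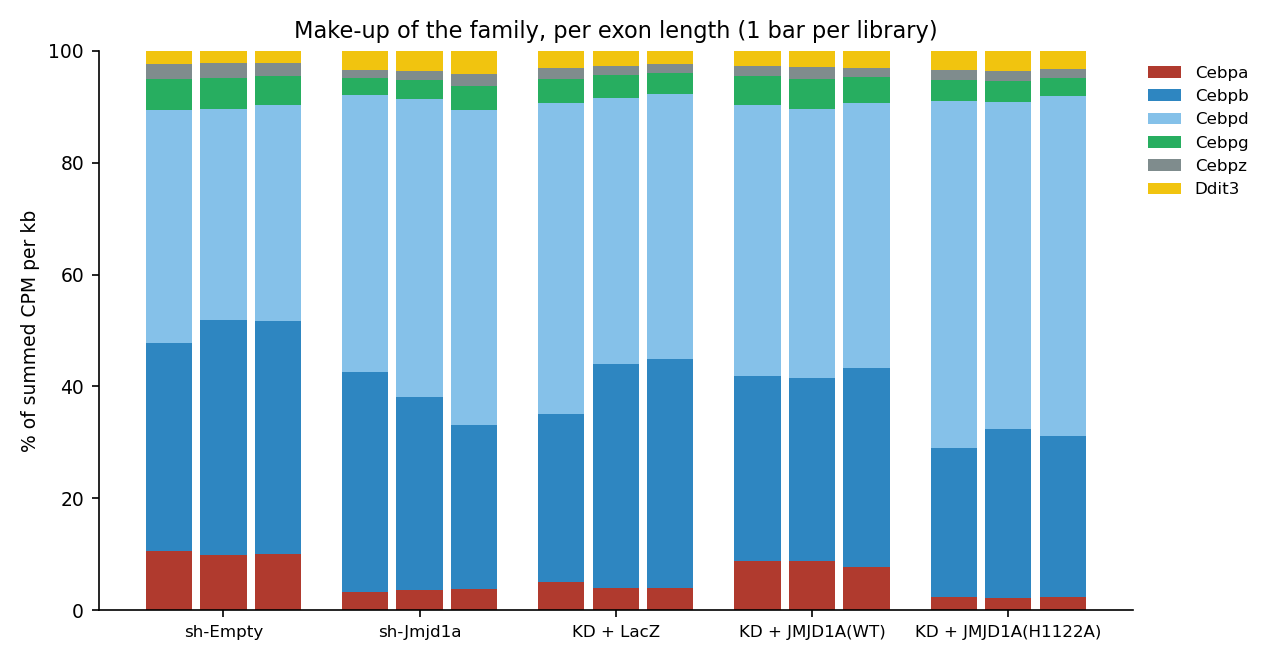
Share of each member in the summed CPM per kilobase of the 6 genes, in percent, with 1 bar per library (KD, knockdown cells). Cebpa, at the bottom of each bar, is 9.83% to 10.5% in sh-Empty and 2.23% to 2.35% with JMJD1A(H1122A), and Cebpd takes the largest share with JMJD1A(H1122A).

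Genes that act before, with and after the C/EBP proteins were counted in 7 lists, beside a median log2 change over all genes of −0.0032 in the knockdown and within 0.0012 of 0 in the other 3 comparisons. The shares of all genes called are those given above, 23.9% lower and 22.3% higher in the knockdown, and a count near them, as in the first 2 lists, is no result about the list. Of 14 genes linked to the induction of Cebpb and Cebpd (CREB, KLF and STAT factors, the glucocorticoid receptor and kinases), 2 fell, 3 rose and 9 were not called in the knockdown, with a median log2 change of 0.03. Klf4, which helps switch on Cebpb, rose from 32.7 ± 1.55 to 57.4 ± 5.86 CPM (SD, n = 3, log2 0.81, adjusted p = 8.92e-10), fell with JMJD1A(WT) against LacZ by 0.29 (adjusted p = 0.00294) and rose with the mutant against the wild type by 0.29 (adjusted p = 0.00167, edgeR). Stat5a fell in the knockdown by 0.40 (adjusted p = 4.65e-08) and Creb1, the cyclic AMP response factor, rose by 0.29 (adjusted p = 0.000894, edgeR). With JMJD1A(WT) against LacZ 1 fell and 1 rose in this list, with the mutant against the wild type 0 fell and 5 rose although the median was −0.02, and against LacZ Stat5a rose and 0 fell. Of 14 genes for proteins that phosphorylate, acetylate, degrade or translate C/EBPs, 5 fell and 4 rose in the knockdown and 0 passed with JMJD1A(WT) against LacZ. Trib2, a pseudokinase that targets C/EBPα for degradation, rose in the knockdown by 0.70 (adjusted p = 1.38e-10), as did Cdk2 by 0.46 (adjusted p = 1.06e-06) and Gsk3b by 0.28 (adjusted p = 2.97e-05, edgeR), kinases that act on C/EBPβ. The 5 that fell were the acetyltransferase genes Kat2a and Kat2b, Celf1, Calr and Trib1, a pseudokinase related to Trib2 (−0.31, adjusted p = 0.000162, edgeR). Trib2 stood at 57.0 ± 1.65 CPM in sh-Empty and at 92.7 ± 6.60 in sh-Jmjd1a, and its change was 0.01 with JMJD1A(WT) against LacZ (adjusted p = 0.975, edgeR). In this list 1 gene fell and 3 rose with the mutant against the wild type, and 0 passed against LacZ.

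Fat-cell genes known as C/EBP targets moved with Cebpa. Of the 13 genes 11 were tested (Lep and Pck1 were too low), and in the knockdown 10 fell and 0 rose, with a median of −2.14. Slc2a4 and Klf15 were tested at low levels. They averaged 1.47 and 1.70 CPM in sh-Empty, 0.22 and 0.38 CPM in sh-Jmjd1a, and 0.19 and 0.27 CPM with JMJD1A(H1122A). The 10 falls ran from −0.89 for Pparg to −3.73 for Cfd, and the gene not called was Insr (−0.02, adjusted p = 0.811, edgeR). Plin1, a lipid-droplet coat protein, went from 178 ± 2.71 to 34.5 ± 1.98 CPM (SD, n = 3, log2 −2.36, adjusted p = 1.23e-22), Scd1, a desaturase, changed by −1.61 (adjusted p = 2.96e-22) and Fabp4, a fatty acid carrier, by −1.87 (adjusted p = 1.63e-20, edgeR). With JMJD1A(WT) against LacZ 10 rose and 0 fell, with a median of 0.98, and with the mutant against the wild type all 11 tested fell, with a median of −1.66. Against LacZ the mutant lowered 6 and raised 0, among them Pparg (−0.48, adjusted p = 2.46e-07), Plin1 (−1.17, adjusted p = 5.87e-15) and Fabp4 (−1.12, adjusted p = 3.12e-19, edgeR), while Scd1 changed by −0.11 (adjusted p = 0.183). Pparg, the partner of Cebpa in the fat-cell loop, was at 123 ± 2.82 CPM in sh-Empty, 66.3 ± 2.52 in sh-Jmjd1a, 73.1 ± 3.07 with LacZ, 93.8 ± 4.98 with JMJD1A(WT) and 52.1 ± 3.02 with JMJD1A(H1122A). Of the 13 genes 5 are also among the 8 adipocyte markers, whose sum moved in the same way, and the part of that shift in the Cebpa result was not tested.

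Acute-phase targets, which C/EBPβ and C/EBPδ are known to drive, were mixed. Of 9 genes 5 fell and 2 rose in the knockdown (median −0.41), 4 rose and 1 fell with JMJD1A(WT) against LacZ, 3 fell and 1 rose with the mutant against the wild type, and 1 fell and 1 rose against LacZ. Complement C3 fell from 2143 ± 40.9 to 695 ± 20.1 CPM (SD, n = 3, log2 −1.63, adjusted p = 8.12e-24), and the plasma proteins Orm1 (−1.40, adjusted p = 3.69e-12) and Hp (−1.10, adjusted p = 7.87e-11) fell with it, while the cytokine Il6 (1.25, adjusted p = 0.0127) and the pentraxin Ptx3 (0.64, adjusted p = 5.61e-09, edgeR) rose. The Il6 rise rests on low counts, at 0.85 ± 0.246 CPM in sh-Empty and 2.06 ± 1.05 CPM in sh-Jmjd1a. Leucine-zipper partners went the other way: of 10 tested of 12, 8 rose and 1 fell in the knockdown, with a median of 0.59. The 8 were Atf4, Atf5, Fos, Fosb, Fosl2, Jun, Junb and Jund, and the 1 that fell was Fosl1 (−0.99, adjusted p = 1.11e-08, edgeR). Fosl2, an AP-1 subunit, rose from 94.0 ± 5.23 to 163 ± 1.44 CPM (SD, n = 3, adjusted p = 1.36e-13), and Atf5 by 0.70 (adjusted p = 8.64e-13, edgeR). With JMJD1A(WT) against LacZ 3 fell and 0 rose, with the mutant against the wild type 6 rose and 1 fell, and against LacZ 3 rose and 0 fell.

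Around Ddit3, genes of ATF4 and endoplasmic reticulum stress rose in part. In the knockdown 13 of 23 tested rose and 5 fell (Atf3 was too low to test), with a median of 0.34. The 5 that fell were Ddit4, Psat1, Dnajb9, Xbp1 and Eif2s1. Atf4, which encodes an activator of Ddit3, rose by 0.48 (adjusted p = 3.30e-09), Asns, an amino acid enzyme under ATF4, by 0.91 (adjusted p = 2.93e-15) and Vldlr, a lipoprotein receptor, by 0.66 (adjusted p = 4.66e-13, edgeR). Trib3, a CHOP and ATF4 target, rose from 10.7 ± 0.282 to 36.2 ± 1.04 CPM (SD, n = 3, log2 1.76, adjusted p = 6.01e-15, edgeR). The endoplasmic reticulum genes of the list were mixed. The chaperone Hspa5, a usual sign of the unfolded protein response, changed by −0.06 (adjusted p = 0.167) and Xbp1 fell by 0.61 (adjusted p = 2.48e-11, edgeR). Herpud1 rose by 0.60 (adjusted p = 2.48e-07), Ero1a by 0.60 (adjusted p = 1.01e-09), Eif2ak3 by 0.29 (adjusted p = 0.00167) and Hsp90b1 by 0.14 (adjusted p = 0.00271, edgeR). Ern1 and Atf6 were not called. With JMJD1A(WT) against LacZ 2 rose and 2 fell, and Trib3 (0.11, adjusted p = 0.717), Asns (−0.08, adjusted p = 0.490) and Atf4 (−0.09, adjusted p = 0.323, edgeR) did not pass. With the mutant against the wild type 7 rose, among them Atf4 (0.15, adjusted p = 0.0229) and Vldlr (0.43, adjusted p = 5.55e-11), and 4 fell, and against LacZ 1 rose and 2 fell. Trib3 was at 28.1 ± 1.93, 29.1 ± 5.86 and 29.1 ± 4.30 CPM with LacZ, JMJD1A(WT) and JMJD1A(H1122A), so like Ddit3 it stayed above sh-Empty in all 3.

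Pre-ribosome factors moved with Cebpz in the knockdown, where 12 of 13 tested fell, 0 rose and the median was −0.36 (Noc2l, the known partner of Cebpz, was not analysed here). Noc4l fell from 112 ± 0.790 to 66.2 ± 2.25 CPM (SD, n = 3, log2 −0.77, adjusted p = 1.60e-12), Rrp1 by 0.38 (adjusted p = 1.81e-08) and nucleolin (Ncl) by 0.31 (adjusted p = 2.17e-08, edgeR). JMJD1A(WT) against LacZ called Noc4l alone (0.27, adjusted p = 0.00205, edgeR), a rise. The mutant against the wild type lowered 7 and raised 0, and against LacZ it lowered 5 and raised 1, Noc4l, while Cebpz was called in neither.

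**Figure D4:**
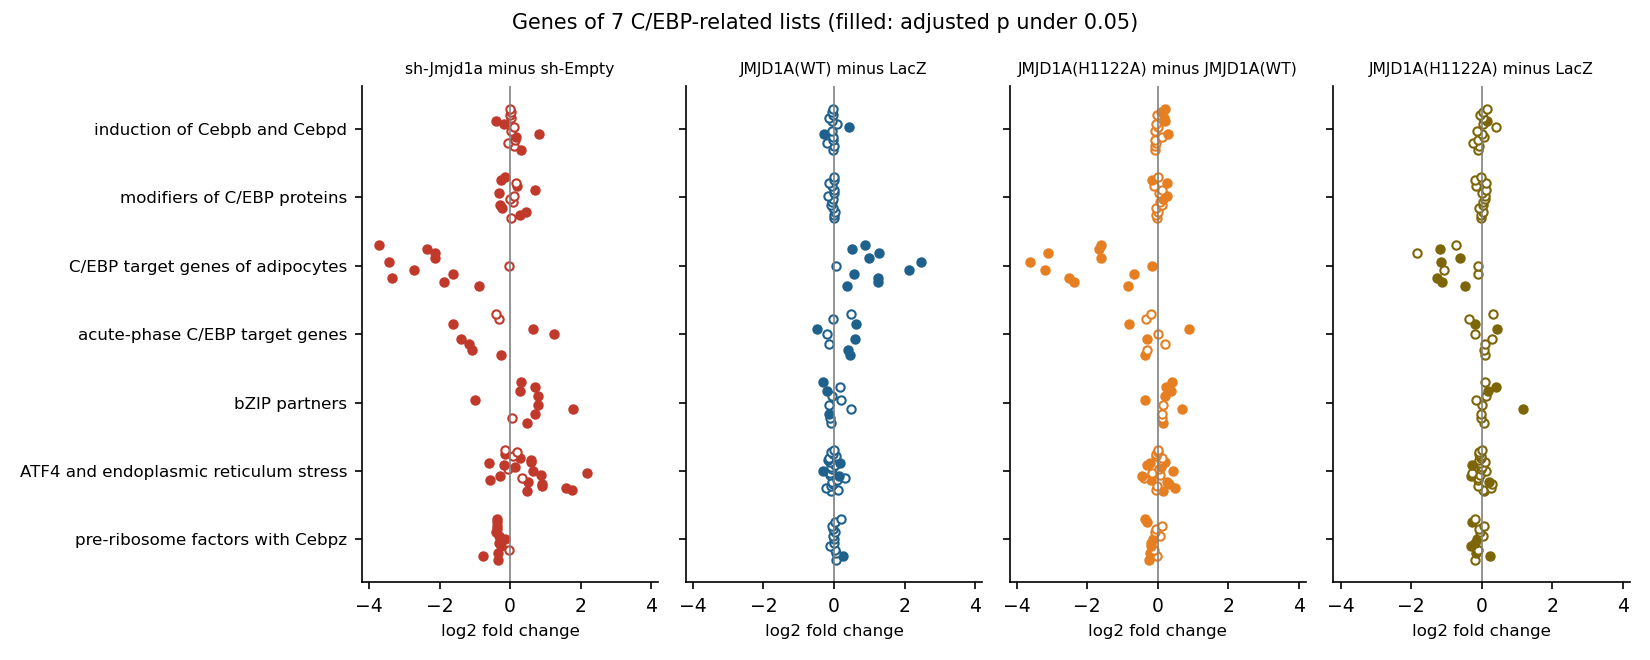
Log2 fold change of every tested gene of the 7 lists in 4 comparisons, each gene a point, filled where the adjusted p was under 0.05. The fat-cell targets lie left of 0 in the knockdown (10 of 11 lower), right of 0 with JMJD1A(WT) against LacZ (10 of 11 higher) and left of 0 again with the mutant (11 of 11 lower against the wild type), while the ATF4 list has points on both sides of 0 in each comparison (13 of 23 higher and 5 lower in the knockdown).

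Over 10221 genes averaging 5 CPM or more, those whose log2 CPM was most like that of Cebpa over the 15 libraries were Dlk1 (Pearson r = 0.996), Fabp4 (0.994) and Col18a1 (0.983). The libraries of a group share their treatment, and all 15 share one scaling, so these values are given as a description. Dlk1, which encodes a preadipocyte surface protein and inhibitor of adipogenesis, was at 875, 825 and 826 CPM in sh-Empty, 522, 513 and 463 CPM in sh-Jmjd1a, 574, 555 and 556 CPM with LacZ, 765, 764 and 738 CPM with JMJD1A(WT) and 377, 380.1 and 408 CPM with JMJD1A(H1122A). It thus fell in the knockdown (log2 −0.76, adjusted p = 6.27e-15, edgeR) alongside the fat-cell targets, while 6 of the 9 tested genes of the preadipocyte and fibroblast list rose and 2, Dlk1 and Ly6a, fell. Genes most like Cebpg were Pank3 (0.955), Slc25a51 (0.942) and Insig1 (0.940).

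Ddit3 was followed most closely by Pmepa1 (0.974), Ppp1r15a (0.961) and B2m (0.958), of which Ppp1r15a encodes GADD34, a phosphatase subunit of the stress response that CHOP is known to induce. Ppp1r15a was at 14.3, 13.3 and 14.3 CPM in sh-Empty and 25.3, 29.1 and 23.9 CPM in sh-Jmjd1a (log2 0.90, adjusted p = 3.26e-08, edgeR). Cebpd was most like Nde1 (0.964), Lmna (0.963) and Uap1l1 (0.960), and Cebpz most like Med22 (0.950), Phb2 (0.946) and Sod2 (0.941). For Cebpb the closest were Glrx2 (0.870), Ube2h (0.846) and Hnrnpa0 (0.837), the lowest values of the 6. Within the family, Cebpa and Cebpg had r = 0.92, Cebpd and Ddit3 0.88, Cebpa and Cebpd −0.77 and Cebpz and Ddit3 −0.83, while every pair with Cebpb was between −0.08 and 0.36.

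**Figure D5:**
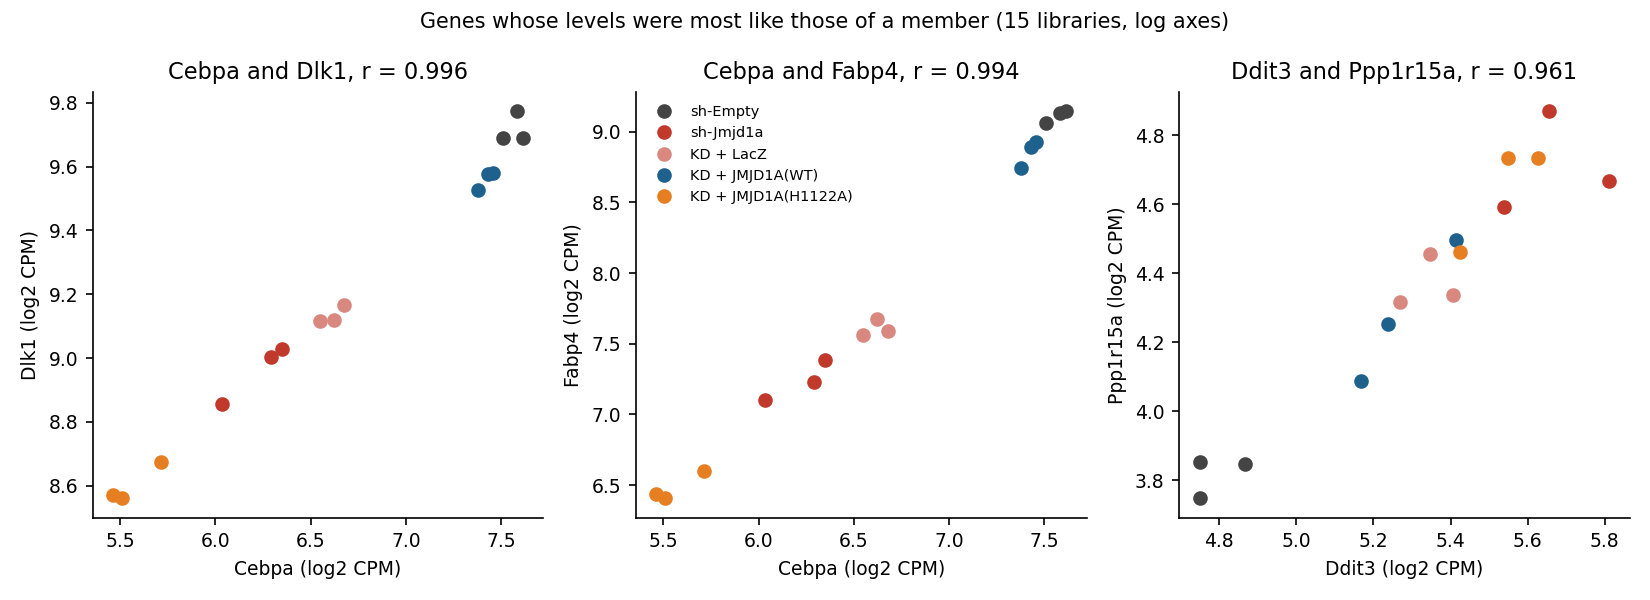
Log2 CPM of Cebpa against Dlk1 and Fabp4 and of Ddit3 against Ppp1r15a, 1 point per library, coloured by group (KD, knockdown cells). The Cebpa panels run from JMJD1A(H1122A) at the lower left to sh-Empty at the upper right (r = 0.996 and 0.994 over 15 libraries), and in the Ddit3 panel sh-Empty is at the lower left (r = 0.961).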

How the data were processed

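Poly(A) RNA-seq libraries were made by the authors from 3T3-L1 cells on day 2. Per the labels, reads were processed with fastp, HISAT2 (mm9) and featureCounts, and the deposited values are raw counts per Entrez gene, 1 table per library. The strand setting was not given in the sources used here. Gene symbols (24191 of 26301 rows) came from RefSeq and positions and exon lengths from GENCODE M1. Counts were tested with edgeR 4.0.16 (R 4.3.3; TMM, filterByExpr with a minimum count of 10, robust quasi-likelihood F test, Benjamini-Hochberg over all tested genes, 0.05), fitted on the 6 knockdown libraries, the 9 LacZ and JMJD1A libraries, or all 15. Scripts were tested on simulated data. Genes named besides the members were, per list, the 3 with the smallest knockdown p, plus Atf4, Pparg, Trib3 and Noc2l. Also named were the nearest counted neighbours that do not overlap the member, and the 3 genes most correlated with each member (log2 CPM, prior count 2). Counted genes that overlap a member (Mars and 1110001A16Rik) were not taken as neighbours. Other names were chosen after their values were seen. The members and lists were chosen with earlier results of these data known. Alternatives were another size factor, DESeq2 1.42.0, other filters and fits, a block and leaving out each library.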

Additional observations from a re-analysis of the deposited data

Results flagged for a closer look

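For 5 of the 6 members the change with less Kdm3a transcript differed between the hairpin and the add-back setting. The hairpin setting was sh-Jmjd1a against sh-Empty and the add-back setting was LacZ against JMJD1A(WT). The difference itself was tested in a fit of 15 libraries (edgeR, adjusted p under 0.05). On the log2 scale the hairpin change minus the add-back change was −0.53 for Cebpa, −0.44 for Cebpz, −0.25 for Cebpg, 0.40 for Cebpd and 0.85 for Ddit3. The Cebpd call was the weak one of these: it held in 6 of the 15 fits with 1 library left out. Of all genes tested, 15.7% were lower and 17% higher in this contrast. The hairpin and add-back libraries differ in vectors as well as in JMJD1A, and these cannot be told apart. The Kdm3a change was also unlike in size, at −0.42 in the hairpin setting and 3.83 for JMJD1A(WT) over LacZ. Whether this unlike size accounts for the member values was not tested. With 3 libraries a group, no formal outlier test was made. Between replicates, chi-square per degree of freedom over genes was 4.49 and 5.22 for sh-Jmjd1a replicate 3 against replicates 1 and 2, and 2.17 between those, and over all groups it ran from 2.06 to 5.22.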

How the results depend on the processing

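The number of members called kept within 1.5 times of the values above under the alternatives run, except that JMJD1A(H1122A) against LacZ called 4 members in place of 2 when the spread was not estimated robustly. With 1 library left out, the number called was 5 in the knockdown, 2 to 3 with JMJD1A(WT) against LacZ, 3 to 4 with JMJD1A(H1122A) against JMJD1A(WT), 2 to 3 against LacZ, 3 for LacZ against sh-Jmjd1a, 3 to 4 for JMJD1A(WT) against sh-Empty and 4 to 5 for the difference between settings. Signs turned only for values that were not called, each with 1 library left out: Cebpb in the knockdown became 0.014 without sh-Empty replicate 3 and 0.19 without sh-Jmjd1a replicate 3 (range −0.28 to 0.19), Ddit3 with JMJD1A(WT) against LacZ became 0.0083 without JMJD1A(WT) replicate 1 (range −0.14 to 0.0083), and LacZ against sh-Jmjd1a became −0.038 for Cebpb and −0.085 for Cebpd without sh-Jmjd1a replicate 3 and −0.0074 for Cebpd without LacZ replicate 3 (ranges −0.038 to 0.43 and −0.085 to 0.084). The causes were not tested.

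Replicate numbers gave no sign of a strong pairing. Over 12 pairs with the same number, deviations from the group means correlated at −0.043 to 0.054, and pairs with different numbers ran from −0.057 to 0.064. Correlations over all genes hold much counting noise, so a weak pairing could go unseen. A replicate block left the number of members called at 5, 3, 4, 3, 3, 4 and 5 in the 7 comparisons, and of 42 values only Cebpd in JMJD1A(H1122A) against LacZ changed its call (0.15, adjusted p = 0.00205, edgeR). The lowest count of a member was 314 (Ddit3, sh-Empty replicate 2), so relative counting error was largest for Ddit3. At an adjusted p under 0.01 the Cebpd falls and rises in JMJD1A(WT) against LacZ and in the difference between settings, Ddit3 in the mutant against the wild type and Cebpa in JMJD1A(WT) against sh-Empty were no longer called.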
